A study of Arabidopsis thaliana with 4 samples.

Results

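The nucleolus organizers of Arabidopsis thaliana are long tandem arrays of ribosomal RNA (rRNA) genes at the north ends of the acrocentric chromosomes 2 and 4. The nucleolus forms at these arrays, where RNA polymerase I transcribes the precursor of the large rRNAs, and inactive arrays are packed as heterochromatin beside it. In the Col-0 ecotype the array on chromosome 2 is known to be largely silenced during vegetative growth while the array on chromosome 4 stays active. The reference genome holds only a few copies of the repeat, so reads from an array and reads from a reference copy elsewhere cannot be told apart by sequence.

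Described here are 12 bins of 100 kb out of 1168 bins with usable values in 2 genome-wide contact maps. They form 3 sets. The chromosome 2 north end is the 5 bins from 0 to 0.5 Mb of chromosome 2, and the chromosome 4 north end is the 5 bins from 0 to 0.5 Mb of chromosome 4. The chromosome 3 rRNA gene bins are the 2 bins from 14.1 to 14.3 Mb, inside the pericentromere of that chromosome. The ends were taken by position, while the chromosome 3 bins were chosen by the reference rRNA genes and by their high counts and strong contacts in these same maps. The contacts below come from the maps used in that choice, so they are descriptions and no test of it. At least 1 of the 12 bins takes part in 13938 of 681528 pairs of used bins.

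The maps come from Hi-C, in which crosslinked chromatin is digested and religated so that paired reads count contacts between loci. One map is of Col-0 endosperm, the seed tissue that nourishes the embryo, labelled F1 and from a Col_wt x Col_wt cross. The other is of Col-0 leaf with the same F1 and cross labels, from plants 4 weeks old. Neither group was treated. Each tissue had 2 independent biological replicates, which the authors pooled into 1 map, so no spread between replicates can be given and no test between tissues was made. Not given in the sources used here are the age of the seeds and the way endosperm nuclei were separated from other seed tissue, and a contact map holds no expression values with which to check the tissue.

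The whole numbers behind the balanced values could be recovered, and summed to 25033672 contacts in endosperm and 18557893 in leaf. The median pair of bins on different chromosomes held 21 contacts in endosperm and 16 in leaf. Each contact below is a balanced value divided by the mean over all pairs between different chromosomes among chromosomes 2 to 5, so that 1 is the average interchromosomal pair. A log2 difference is endosperm over leaf. Its 95% interval covers counting error only, leaves out the spread between plants, and is a description rather than a test. In the leaf map the first 1.5 Mb of chromosome 2 is joined to chromosome 1, so chromosome 1 partners are given apart. The chromosome 2 end lies in this stretch. For its contacts with any partner, a tissue difference and a difference due to the junction cannot be told apart.

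The annotation table held 4 nuclear rRNA genes, and all 4 lay in these bins. AT2G01010 and AT2G01020 lie in the outermost bin of chromosome 2. AT3G41768 and AT3G41979 lie in the first of the chromosome 3 bins. The longer gene of each pair spans 1808 bases and the shorter 164 bases. No rRNA gene of the table lies in the 5 bins of chromosome 4, so that set stands for sequence next to the array and not for the array. Protein-coding genes numbered 15 in the outermost chromosome 2 bin, 23 to 31 in each of the other 4 and 28 to 31 in each chromosome 4 bin. The chromosome 3 bins held 1 and 4.

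The bins annotated with rRNA genes collected many more contacts than an ordinary bin, and the excess was larger in endosperm. The outermost bin of chromosome 2 held 331403 contacts in endosperm and 145795 in leaf, which is 9.10 times the median bin in endosperm and 5.51 times in leaf. The first chromosome 3 bin stood at 12.7 times the median in endosperm and 6.79 times in leaf. The second chromosome 3 bin, with no rRNA gene in the table, stood at 6.72 times in endosperm and 3.37 times in leaf. Relative to the median, counts in these 3 bins were 1.65, 1.87 and 2.00 times higher in endosperm than in leaf. The remaining 9 bins lay between 0.903 and 1.11 times the median in endosperm and between 0.915 and 1.04 times in leaf.

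**Figure D1:**
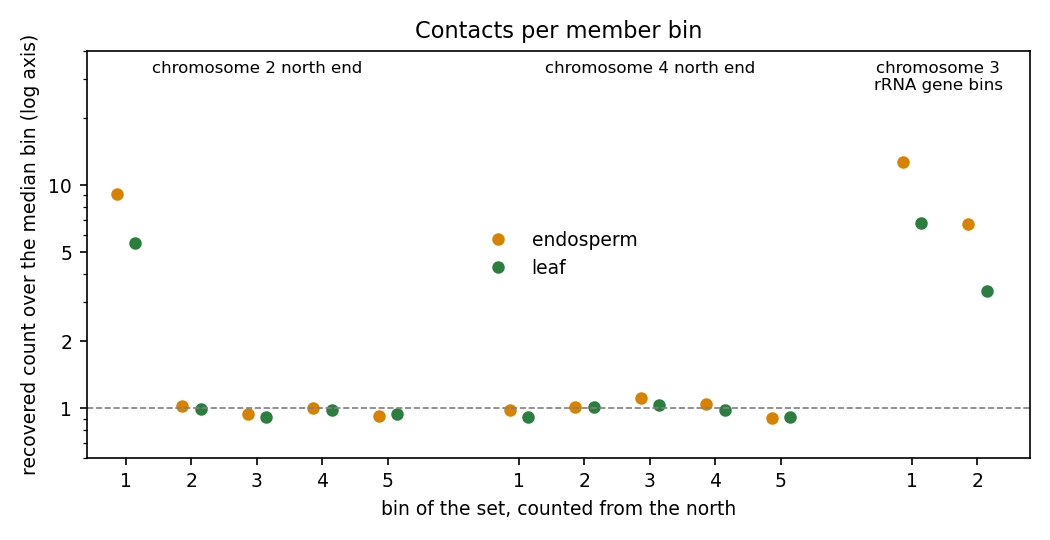
Recovered contacts of each of the 12 bins divided by the median over used bins, on a log axis, for endosperm (orange) and leaf (green). The outermost chromosome 2 bin and both chromosome 3 bins stand at 6.72 to 12.7 in endosperm and 3.37 to 6.79 in leaf, and the other 9 bins lie near 1 (dashed line).

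Across the genome 0.685% of used bins (8 of 1168) were more than 1.2-fold higher in endosperm on this measure, and 3 of these 8 are the rRNA gene bins and their neighbour, while 0.514% were lower by as much and none of the 12 bins was among them. Since the chromosome 3 bins were chosen partly for their counts, this is no independent finding about them. The tissue difference in counts was not uniform among bins with high counts. The most covered bin of each of the 5 chromosomes had a fold of 0.685 to 0.749 in endosperm over leaf, while 3 bins at 3.2 to 3.5 Mb of chromosome 2 had folds of 1.66 to 2.27.

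A large share of the contacts of these 3 bins was with each other. Of all recovered contacts of the outermost chromosome 2 bin, 24.9% were with the chromosome 3 bins in endosperm and 34.4% in leaf. For the first chromosome 3 bin the share with the other 2 was 17.7% in endosperm and 26.5% in leaf, and for the second it was 13.4% in endosperm and 14.2% in leaf. With only partners outside these 3 bins counted, the outermost chromosome 2 bin still stood at 7.11 times the median in endosperm and 3.78 times in leaf.

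The strongest interchromosomal contact of all 3 sets joined the outermost bin of chromosome 2 to the first chromosome 3 bin. It was 42.3 times the average pair in endosperm (66100 contacts) and 127 times in leaf (42544 contacts), a log2 difference of -1.59 (-1.61 to -1.57). With the second chromosome 3 bin the same bin reached 18.7 in endosperm and 41.3 in leaf. Over both chromosome 3 bins the value was 30.5 in endosperm and 84.4 in leaf. The 10 bins flanking the chromosome 3 bins had a mean of 1.32 with the outermost chromosome 2 bin in endosperm and 1.23 in leaf, so the contact did not extend to neighbouring sequence. A contact between sequence on the 2 chromosomes and a contact within an array whose reads were placed on both reference copies cannot be told apart in these maps.

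The balanced contact between these bins was lower in endosperm while the count was higher. Without balancing, the chromosome 2 end and the chromosome 3 bins had a log2 difference of 0.33, against -1.21 after it. Balancing divides each pair by a factor for the coverage of both bins, and that coverage was 1.65 to 2.00 times higher in endosperm. The direction of the tissue difference for pairs between the high-coverage bins therefore depends on which of the values is read.

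The 4 remaining bins of the chromosome 2 end had ordinary coverage and held no annotated rRNA gene, yet their contact with the chromosome 3 bins was also raised. It was 2.23 in endosperm and 1.67 in leaf, a log2 difference of 0.42 (0.31 to 0.53). By position inward from the outermost bin, the contact with the chromosome 3 bins was 2.91, 1.87, 2.08 and 2.06 in endosperm and 2.31, 1.5, 1.44 and 1.42 in leaf. Each of the 4 was higher in endosperm. Of the 5 chromosome 2 bins, these 4 were more than 1.2-fold higher in endosperm in their contact with the chromosome 3 bins, but so were 40.2% of used bins on chromosomes 2, 4 and 5, and 1.55% were lower by as much. The median log2 difference over the 5 bins was 0.34, against 0.21 over all those bins. A share of 4 in 5 thus has to be read against a general shift of the same direction.

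The chromosome 4 end had the same raised contact with the chromosome 3 bins, at 1.98 in endosperm and 1.96 in leaf. Its log2 difference was 0.02 (-0.08 to 0.12). From the end inward the values were 2.88, 2.04, 1.81, 1.68 and 1.51 in endosperm and 3.72, 1.71, 1.70, 1.45 and 1.21 in leaf. The contact fell off inward in both tissues. The outermost bin was lower in endosperm, with a log2 difference of -0.37, and without it the set had a log2 difference of 0.21 (0.09 to 0.33). Against an expectation from the totals of both bins, with pairs among the rRNA bins left out, the whole set had -0.19 (-0.29 to -0.09). Of the 5 bins, 1 was more than 1.2-fold higher in endosperm and 1 was lower, against 40.2% higher and 1.55% lower among the used bins on chromosomes 2, 4 and 5. Other settings gave the set 1.08 (without balancing) and 0.15 (at 200 kb).

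The raised contact stopped at the borders of the 2 chromosome 3 bins. Their 10 flanks ranged from 0.820 to 1.39 with the 4 inner chromosome 2 bins in endosperm and from 0.772 to 1.14 in leaf. With the chromosome 4 end the flanks ranged from 0.609 to 1.24 in endosperm and from 0.560 to 1.13 in leaf. Both chromosome 3 bins lay above all 10 flanks with either end in both tissues. With chromosome ends that carry no organizer, the 2 bins had 1.28 in endosperm and 1.15 in leaf, against flank means of 0.917 in endosperm and 0.912 in leaf.

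**Figure D2:**
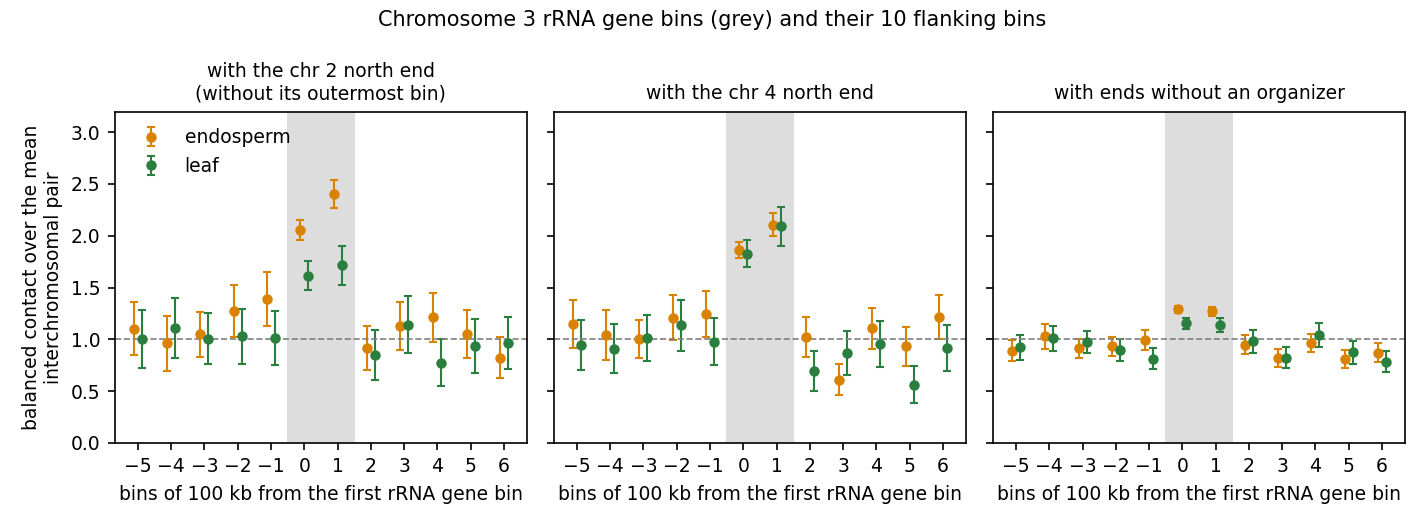
Balanced contact of the chromosome 3 rRNA gene bins (grey band, positions 0 and 1) and of 5 bins on each side with 3 partners, relative to the mean interchromosomal pair of chromosomes 2 to 5; bars are 95% counting intervals, endosperm orange and leaf green. With both organizer ends the 2 bins stand above all 10 flanks, at 1.86 to 2.4 in endosperm and 1.62 to 2.09 in leaf.

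Set against their own contact with other ends, the chromosome 3 bins had more contact with both organizer ends. The ratio for the 4 inner chromosome 2 bins over the ends without an organizer was 1.74 in endosperm and 1.45 in leaf. For the chromosome 4 end it was 1.55 in endosperm and 1.71 in leaf. By single end, contact of the chromosome 3 bins with the 4 other ends of chromosomes 2, 4 and 5 spanned only 1.26 to 1.31 in endosperm and 1.08 to 1.17 in leaf.

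In endosperm the raised contact reached along the north part of both acrocentric chromosomes, pericentromeric bins included, and in leaf along that of chromosome 4. On chromosome 2 the value over 0.1 to 1.5 Mb was 1.83 in endosperm and 1.34 in leaf, and over 1.5 to 3.2 Mb it was 1.76 in endosperm and 1.03 in leaf. The log2 differences were 0.45 (0.38 to 0.52) for the first stretch and 0.77 (0.70 to 0.84) for the second. On chromosome 4 the value over 0 to 1.5 Mb was 1.62 in endosperm and 1.47 in leaf, and over 1.5 to 3.2 Mb it was 1.48 in endosperm and 1.44 in leaf. The excess in endosperm was thus largest on the part of chromosome 2 that lies inward of the leaf junction at 1.5 Mb. The part of the junction in this difference was not tested. The 5 partner bins with the largest excess in endosperm all lay between 1.8 and 2.9 Mb of chromosome 2, inside its pericentromere. The bin at 1.8 Mb led with 1.74 in endosperm and 0.733 in leaf. By windows of 0.5 Mb, the chromosome 2 value in endosperm was 1.58 from 1.5 Mb, 1.97 from 3.5 Mb and 1.56 from 5.0 Mb. In leaf it was 0.934, 1.34 and 1.08.

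**Figure D3:**
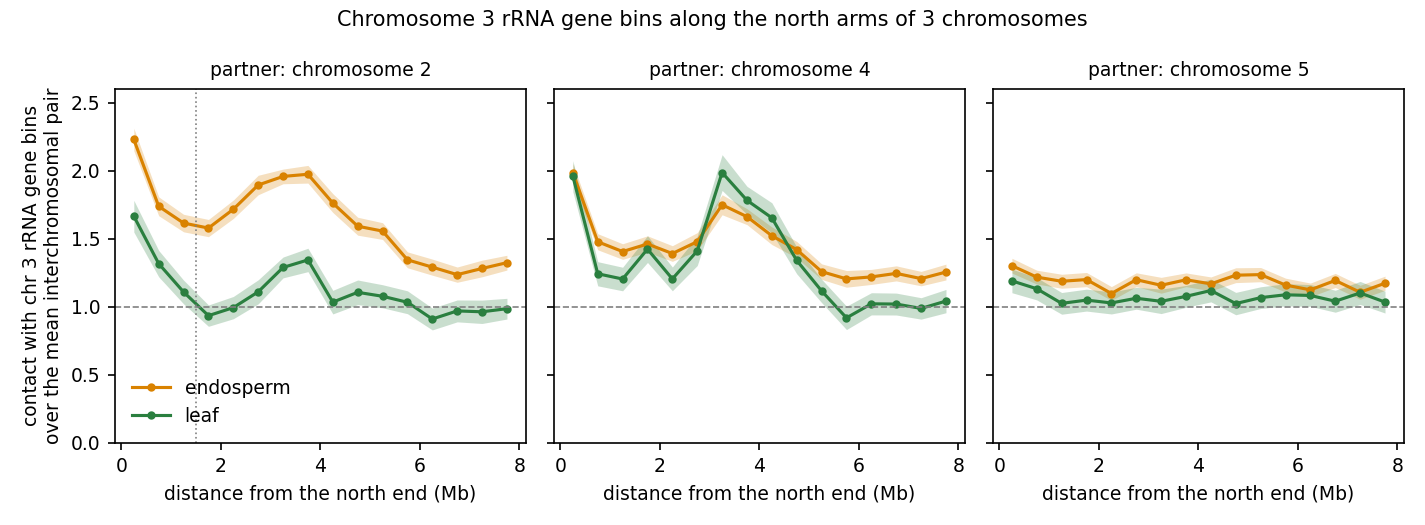
Contact of the chromosome 3 rRNA gene bins with windows of 0.5 Mb, against distance from the north end of chromosomes 2, 4 and 5, with 95% counting intervals as bands; endosperm orange, leaf green, and the leaf junction of chromosome 2 dotted. The outermost bin and the 7.1 Mb bin of chromosome 2 and the 3.2 Mb bin of chromosome 5 are left out. On chromosome 2 endosperm stays at or above 1.58 over the first 4.5 Mb while leaf dips to 0.934, and on chromosome 4 both tissues are high at the end and again at 3 to 3.5 Mb, with 1.75 in endosperm and 1.99 in leaf.

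A pair of bins with no annotated rRNA gene was among the strongest partners of the chromosome 3 bins. The bin at 3.2 to 3.3 Mb of chromosome 5 had 29.1 with the first chromosome 3 bin in endosperm and 66.1 in leaf, 3.96 with the second bin in endosperm and 4.33 in leaf, and 12.5 with the outermost chromosome 2 bin in endosperm and 14.1 in leaf. The bin at 7.1 to 7.2 Mb of chromosome 2 had 14.1 with the first chromosome 3 bin in endosperm and 29.1 in leaf, and 3.0 with the second in endosperm and 3.27 in leaf. The 10 neighbours of the chromosome 5 bin stayed between 0.805 and 1.41 with each of the 3 bins. Contact of the chromosome 5 bin with the chromosome 4 end was 1.49 in endosperm and 1.36 in leaf, and with the 4 inner chromosome 2 bins it was 1.40 in endosperm and 0.732 in leaf (log2 difference 0.93, 0.50 to 1.36). Both bins held moderately high counts, at 1.72 and 1.56 times the median in endosperm and 1.49 and 1.38 times in leaf. The pattern sat in single bins with high counts, and whether those bins share sequence with the rRNA genes was not tested.

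Over all 5 bins of each, the balanced contact between the chromosome 2 and chromosome 4 ends was lower in endosperm, while the unbalanced one was higher. After balancing, the 2 ends had a contact of 1.33 in endosperm and 1.64 in leaf, a log2 difference of -0.31 (-0.44 to -0.17), and without balancing the difference was 0.59 (0.48 to 0.69). By bin, the outermost one of chromosome 2 went the other way, at 2.15 in endosperm and 1.82 in leaf, and the other 4 bins had 1.12 in endosperm and 1.6 in leaf (log2 difference -0.51, -0.69 to -0.33). Unbalanced, the outermost bin held 1651 contacts in endosperm and 567 in leaf. The other 4 bins held 490 in endosperm and 503 in leaf, although the endosperm map is deeper. Of the 5 chromosome 2 bins, 4 were more than 1.2-fold lower in endosperm in their contact with the chromosome 4 end, against 13.6% of 696 bins, while 20% of bins were higher by as much. Of the 5 chromosome 4 bins, 3 were lower with the chromosome 2 end, against 10.9% of 682 bins, and 14.7% were higher. Divided by the contact of other ends among themselves, the value for both organizer ends was 0.824 in endosperm and 0.834 in leaf, and that without the outermost chromosome 2 bin was 0.696 in endosperm and 0.812 in leaf. At 200 kb the difference between the ends shrank to -0.07 (-0.18 to 0.04). In leaf the chromosome 2 end lies on the stretch joined to chromosome 1, so tissue and junction cannot be told apart here.

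Along the chromosome 4 end, contact of the outermost chromosome 2 bin was 3.27, 2.36, 2.07, 1.78 and 1.27 in endosperm and 3.16, 1.74, 1.48, 1.43 and 1.29 in leaf, from the end inward. The first position differed little between tissues, and each of the 5 pairs rested on at least 177 contacts in endosperm and 77 in leaf.

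Telomere-proximal ends meet each other above average in both maps, and the organizer ends did so less than the rest. The ends without an organizer on chromosomes 2 to 5 had 1.61 among themselves in endosperm and 1.97 in leaf. The chromosome 2 end had 1.12 with them in endosperm and 1.32 in leaf, and the chromosome 4 end had 1.34 in endosperm and 1.54 in leaf. Relative to the ends among themselves, these are 0.695 in endosperm and 0.673 in leaf for chromosome 2, and 0.831 in endosperm and 0.783 in leaf for chromosome 4. The log2 differences between tissues were -0.24 (-0.31 to -0.17) for the chromosome 2 end and -0.20 (-0.27 to -0.13) for the chromosome 4 end, beside -0.29 (-0.33 to -0.25) for the ends among themselves. For the chromosome 2 end, tissue and leaf junction cannot be told apart. Without balancing the difference of the chromosome 2 end was 0.38 (0.32 to 0.43). Its outermost bin held 4882 contacts with these ends in endosperm and 2031 in leaf, and the other 4 bins held 2425 in endosperm and 2189 in leaf. Set against those other ends, the balanced tissue difference was 0.05 (-0.03 to 0.12) for the chromosome 2 end and 0.09 (0.01 to 0.16) for the chromosome 4 end. For the chromosome 3 bins, which lie in a pericentromere and not at an end, it was 0.45 (0.38 to 0.52), all on the log2 scale. That value includes the fall of the ends among themselves. Without that division the chromosome 3 bins had 0.16 (0.10 to 0.22) with these ends, and the rest of their pericentromere had 0.07 (0.04 to 0.10). Relative to their 10 flanks the difference was 0.15 (0.06 to 0.25).

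**Figure D4:**
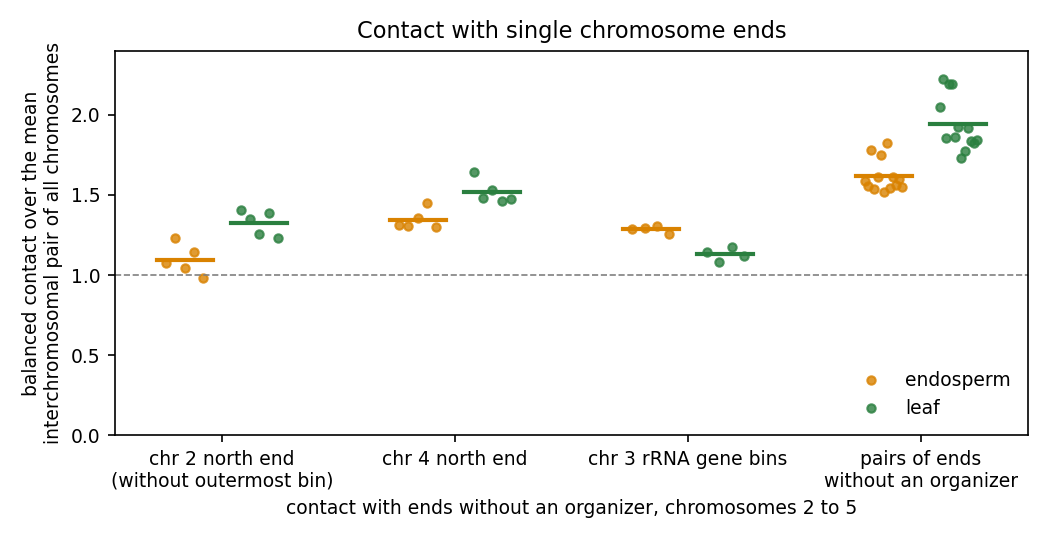
Contact of the 4 inner bins of the chromosome 2 end, of the chromosome 4 end and of the chromosome 3 rRNA gene bins with each single end without an organizer, beside pairs of such ends, all on chromosomes 2 to 5 and relative to the mean interchromosomal pair of all chromosomes; each point is an end or a pair of ends, lines are means, endosperm orange and leaf green. Pairs of ends without an organizer run from 1.52 to 1.82 in endosperm and from 1.73 to 2.22 in leaf, above every value of the chromosome 4 end in the same tissue.

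By bin, 3 of the 5 chromosome 2 bins and 1 of the 5 chromosome 4 bins were more than 1.2-fold lower in endosperm in their contact with the ends without an organizer. The share among all 1168 used bins was 5.99%, and 2.57% were higher by as much, with none of the 12 bins among the higher ones. On this measure the outermost chromosome 2 bin had 1.24 in both tissues, and the other 4 averaged 1.09 in endosperm and 1.35 in leaf.

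Pericentromeres of other chromosomes, where gene cover is low and heterochromatin prevails, were met more by the chromosome 3 bins than by either end. The value was 1.47 in endosperm and 1.21 in leaf (log2 difference 0.29, 0.26 to 0.32), and both bins passed 1.2-fold, against 2.83% of 1168 bins that did so upward and 0.685% downward. The 10 flanks, which lie in the same pericentromere, averaged 1.13 in endosperm and 1.00 in leaf, and relative to them the tissue difference of the chromosome 3 bins was 0.11 (0.07 to 0.15). Pericentromeres among themselves had 1.09 in endosperm and 0.982 in leaf, a log2 difference of 0.16. By chromosome, the excess of the chromosome 3 bins in endosperm lay with chromosome 2. Its pericentromere, which includes the 5 bins of largest excess named above, had 1.65 with the chromosome 3 bins in endosperm and 1.08 in leaf. With the pericentromere of chromosome 4 the values were 1.5 in endosperm and 1.53 in leaf, and with that of chromosome 5 they were 1.23 in endosperm and 1.14 in leaf. Without chromosome 2 the log2 difference dropped to 0.04 (0.01 to 0.08). Against the expectation from totals without pairs among the rRNA bins it was 0.013 (-0.013 to 0.038).

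The chromosome 2 end had 1.10 with pericentromeres in endosperm and 1.03 in leaf, and the chromosome 4 end had 1.01 in endosperm and 0.914 in leaf. Their log2 differences, 0.09 and 0.14, are to be set beside 0.07 for the ends without an organizer and a median of 0.09 over all bins. Against an expectation from the totals of both bins they were 0.015 and 0.0030, with intervals that held 0. By chromosome, the outermost chromosome 2 bin met the pericentromere of chromosome 4 most, at 1.52 in endosperm and 1.54 in leaf, and that of chromosome 3 less, at 1.17 in endosperm and 1.11 in leaf. With the heterochromatic knob on the short arm of chromosome 4 this bin had 1.52 in endosperm and 1.30 in leaf, and the chromosome 3 bins had 1.43 in endosperm and 1.35 in leaf.

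**Figure D5:**
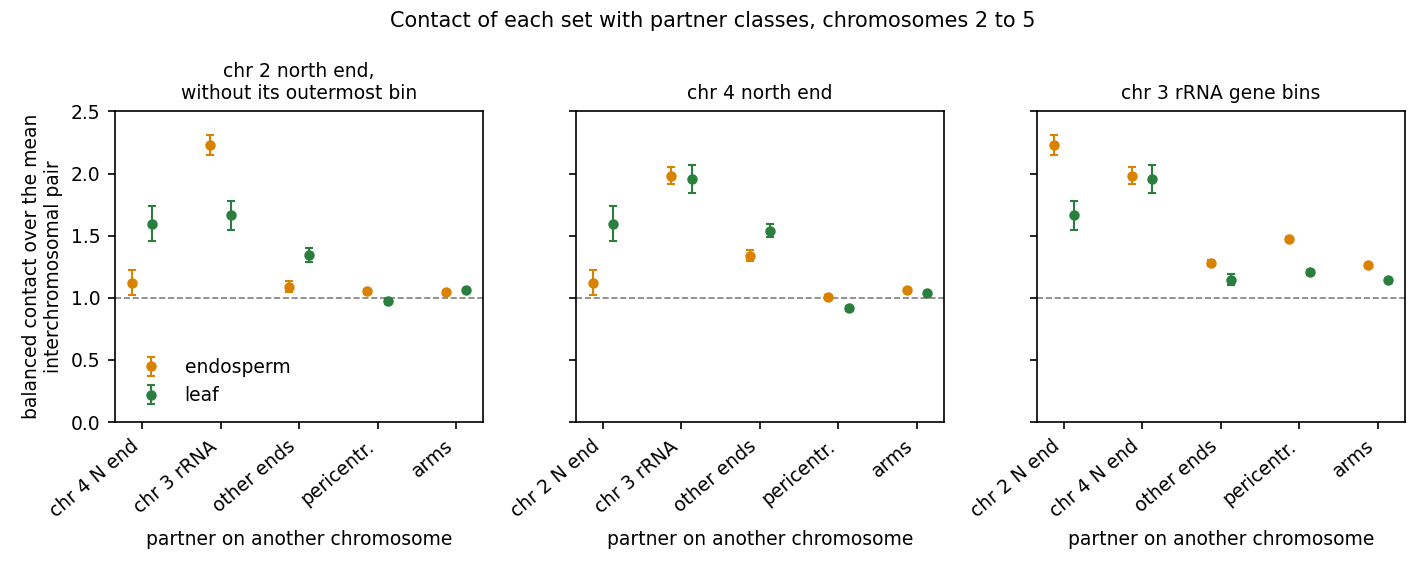
Contact of the 4 inner bins of the chromosome 2 end, of the chromosome 4 end and of the chromosome 3 rRNA gene bins with each partner class on other chromosomes, relative to the mean interchromosomal pair of chromosomes 2 to 5 (dashed line), with 95% counting intervals; endosperm orange, leaf green. The chromosome 3 bins have 2.23 with the chromosome 2 end in endosperm and 1.67 in leaf, while the 2 ends have 1.12 with each other in endosperm and 1.6 in leaf.

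With arms both organizer ends lay near the average pair. The chromosome 2 end had 1.08 with arms of other chromosomes in endosperm and 1.06 in leaf, and the chromosome 4 end had 1.06 in endosperm and 1.04 in leaf. For the chromosome 3 bins the values were 1.26 in endosperm and 1.14 in leaf, a log2 difference of 0.15, which became -0.0058 (-0.018 to 0.0065) against the expectation from totals without pairs among the rRNA bins. With chromosome 1 partners included, the difference of the chromosome 2 end was -0.051, against 0.02 without them. None of the 1168 bins passed 1.2-fold in either direction, a share of 0% each. Contacts of the chromosome 3 bins were also divided by their arm value in the same map. The ratio for ends without an organizer was then 1.01 in endosperm and 1.00 in leaf. For pericentromeres it was 1.17 in endosperm and 1.06 in leaf, for the 4 inner chromosome 2 bins 1.76 in endosperm and 1.46 in leaf, and for the chromosome 4 end 1.57 in endosperm and 1.72 in leaf. The difference with the chromosome 4 end became -0.13 (-0.23 to -0.03), and that with the inner chromosome 2 bins stayed positive at 0.28 (0.16 to 0.39).

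By single partner bin, the strongest partners of the chromosome 2 end were the same 5 bins in both tissues. After both chromosome 3 bins came the chromosome 5 bin at 3.2 Mb, with 3.62 in endosperm and 3.40 in leaf, and the outermost chromosome 4 bin, with 1.70 in endosperm and 1.93 in leaf. Of the contacts with the chromosome 5 bin, 2682 of 2852 in endosperm and 1119 of 1177 in leaf were with the outermost chromosome 2 bin. With the first chromosome 3 bin these were 66100 of 67923 in endosperm and 42544 of 43083 in leaf. The 4 inner bins alone had 1.40 with the chromosome 5 bin in endosperm and 0.732 in leaf. The largest excess in endosperm among bins with at least 50 contacts in both tissues was with the bin at 12.3 Mb of chromosome 3, at 1.54 in endosperm and 0.860 in leaf. Apart from the chromosome 3 rRNA gene bins, the largest deficit was with the bin at 0.4 Mb of that chromosome, inside its north end, at 0.828 in endosperm and 1.43 in leaf.

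The leading partners of the chromosome 4 end differed between the maps. In endosperm the outermost chromosome 2 bin led, with 2.15 in endosperm and 1.82 in leaf, followed by both chromosome 3 bins. In leaf the bin at 19.6 Mb of chromosome 2, at the opposite end from the organizer, led with 1.32 in endosperm and 2.29 in leaf, a log2 difference of -0.80. Also among the first 5 in leaf was the outermost bin of chromosome 3, with 1.33 in endosperm and 2.07 in leaf. The largest excess in endosperm was with the bins at 2.3 and 2.7 Mb of chromosome 2, at 1.15 and 1.25 in endosperm and 0.674 and 0.745 in leaf. In leaf they rested on 52 and 58 contacts, near the floor of 50, and they were the extremes of 682 bins. Both were also among the 5 bins with the largest excess for the chromosome 3 bins. Both lie inward of the leaf junction at 1.5 Mb, whose part in this was not tested.

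Chromosome 1 separated the tissues at the leaf junction. The 4 inner chromosome 2 bins had 0.956 with the 2 Mb of chromosome 1 north of the junction in endosperm and 2.4 in leaf, and 1.06 with the 2 Mb south of it in endosperm and 1.10 in leaf. The outermost chromosome 2 bin, whose reads may come from any copy of the repeat, showed little of this, with 1.13 in endosperm and 1.24 in leaf north of it. For the chromosome 3 bins the value there was 1.14 in endosperm and 1.10 in leaf, and the chromosome 4 end had 0.987 in endosperm and 1.14 in leaf.

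Within their own chromosomes, contacts were compared with the mean of all pairs on that chromosome at the same distance. The chromosome 2 end had 0.941 of that mean with its own pericentromere in endosperm and 0.547 in leaf, where the junction lies between them. The chromosome 4 end had 0.820 with its own pericentromere in endosperm and 0.881 in leaf, and 0.872 with its own knob in endosperm and 0.946 in leaf. The first chromosome 3 bin met its own pericentromere at 0.323 of the distance mean in endosperm and 0.443 in leaf, and its 10 flanks at 0.211 in endosperm and 0.392 in leaf. For the second bin the values were lower than the distance mean mainly in endosperm, with 0.433 in endosperm and 0.845 in leaf for the pericentromere and 0.369 in endosperm and 0.993 in leaf for the flanks. Over both bins the log2 difference with the pericentromere was -0.77, and without balancing it was 0.34. The same flanks met each other at 1.25 in endosperm and 1.83 in leaf.

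After balancing, the low local contact was sharp at the borders of the high-coverage bins. Contact of the first chromosome 3 bin with its north neighbour was 2.56 times the average interchromosomal pair in endosperm and 3.10 times in leaf. Among 1148 adjacent pairs it ranked 1 from the lowest in endosperm and 3 in leaf, where the median adjacent pair had 22.0 in endosperm and 14.5 in leaf. The second chromosome 3 bin had 4.19 with its south neighbour in endosperm and 7.93 in leaf. On chromosome 2 the outermost bin had 4.80 with the next bin inward in endosperm and 4.82 in leaf, ranking 8 from the lowest in endosperm and 6 in leaf. At the chromosome 4 end, which had ordinary coverage, the outermost adjacent pair had 27.1 in endosperm and 20.8 in leaf.

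In interchromosomal share, counted from the highest of the used bins, the outermost chromosome 2 bin ranked 4 in endosperm and 2 in leaf, the first chromosome 3 bin 3 in endosperm and 7 in leaf, and the second 6 in endosperm and 130 in leaf. Contacts with other chromosomes made up 80.2% of the balanced signal of the outermost chromosome 2 bin in endosperm and 84.0% in leaf. The first chromosome 3 bin had 80.6% in both tissues, and the second had 78.3% in endosperm and 73.8% in leaf. The other 4 chromosome 2 bins had 71.6% to 73.9% in endosperm and 79.9% to 81.8% in leaf, and the chromosome 4 bins had 72.4% to 76.3% in endosperm and 75.2% to 77.8% in leaf. For comparison, the 40 bins of ends without an organizer averaged 68.9% in endosperm and 73.3% in leaf, and the 10 flanks of the chromosome 3 bins 67.3% in endosperm and 65.8% in leaf. All 10 bins of both organizer ends and all 40 bins of the other ends were lower in endosperm, as were 910 of 916 arm bins, so this direction was general. The size was not: the 4 inner chromosome 2 bins had -8.53 points, the other ends -4.40 and the chromosome 4 end -1.81. In leaf those 4 bins lie on the stretch joined to chromosome 1, while the share goes by reference chromosome. Without chromosome 1 partners they had -8.60 points. The part of the junction in this was not tested. The chromosome 3 set was 2.24 points higher in endosperm, with 1 bin higher and 1 lower, and its 10 flanks and 130 of 193 pericentromeric bins were higher too.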

How the data were processed

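Per the labels, each tissue had 2 Hi-C replicates of total DNA, sequenced as paired ends. Per the submitters' processing notes, HiC-Pro 2.9.0 and Bowtie2 were used on TAIR10. Not given in the sources used here are read filters, the treatment of reads from repeats and the balancing settings. The deposited files hold the signal per pair of bins after the authors' iterative balancing, at 100 and 200 kb, with replicates pooled.

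Whole counts were recovered from the balanced values, and 100% of pairs came out within 0.01 of a whole number. Bins without signal (23 in each tissue) and bins with values for under 50% of partners were left out. A count model was not used, since 1 pooled map per tissue leaves no replicates. Intervals (95%) were computed from the recovered counts as weighted Poisson sums, and were tested on simulated data. They cover counting error only, and PCR copies are not independent molecules.

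Pericentromeres are runs with protein-coding gene cover under 0.5 of the median, smoothed over 1 Mb. Ends are 5 bins. The knob is 1.6 to 2.3 Mb of chromosome 4. Gene names came from a TAIR10.1 table, used only for names and for the bin a gene falls in. The named partner bins were the 5 strongest, and those with the 5 largest differences either way and at least 50 contacts in both tissues. The members and lists were chosen with earlier results of these data known. Python 3.11.15 and numpy 2.4.6 were used.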

Additional observations from a re-analysis of the deposited data

How the results depend on the processing

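Over 21 results and 195 alternative values, 172 were counted as the same. These kept the direction and whether the counting interval held 0, or both intervals held 0. Of the rest, 11 reversed the direction, 9 were weaker (the interval came to hold 0) and 3 were stronger (it no longer did). In 8 of the 21 results every alternative was the same. Many alternatives leave out 1 bin or chromosome and so overlap the main value. The alternatives that add an expectation without rRNA pairs, or divide by the arm value, were chosen after seeing the data. Values are log2 differences, endosperm over leaf. Without balancing, values follow the coverage of the bins: the chromosome 2 end had 0.59 with the chromosome 4 end, 0.33 with the chromosome 3 bins and 0.38 with other ends, the chromosome 4 end had 1.08 with the chromosome 3 bins and -0.049 with its own pericentromere, and the chromosome 3 bins had 0.34 with theirs. At 200 kb the organizer ends had -0.070 with each other, and the chromosome 4 end had 0.15 with the chromosome 3 bins. With an expectation from both bins' totals, contact with pericentromeres was 0.015 for the chromosome 2 end and 0.0030 for the chromosome 4 end. With pairs among the rRNA bins left out of the totals, these were -0.026 and 0.0036, and the chromosome 3 bins had -0.19 with the chromosome 4 end, 0.031 with other ends, 0.013 with pericentromeres and -0.0058 with arms. Divided by arms, the chromosome 3 bins had 0.016 with other ends. With chromosome 1 partners included, the chromosome 2 end had -0.051 with arms, and south of the leaf junction it had -0.013 with chromosome 1. The causes were not tested beyond what each construction changes.

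Leaving out a member bin or a partner chromosome in turn, the chromosome 2 end ranged from -0.51 to -0.22 with the chromosome 4 end, from -1.41 to 0.42 with the chromosome 3 bins (positive only without its outermost bin), from -0.30 to -0.19 with other ends, from 0.06 to 0.12 with pericentromeres and from -0.015 to 0.032 with arms (negative without the outermost bin or chromosome 5). The chromosome 4 end ranged from -0.038 to 0.21 with the chromosome 3 bins (0.21 without its outermost bin), from -0.25 to -0.16 with other ends, from 0.12 to 0.15 with pericentromeres and from 0.02 to 0.05 with arms. The chromosome 3 bins ranged from 0.14 to 0.19 with other ends, from 0.04 to 0.41 with pericentromeres (0.04 without chromosome 2) and from 0.10 to 0.22 with arms.

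No paired analysis was possible because the replicates of each tissue were pooled in the deposited maps. Single pairs hold few contacts, which limits statements about pairs of ordinary bins.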
